A study of Mus musculus with 10 samples.

Results

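The genes described here are 10 genes of the pericentral zone of the liver lobule and of β-catenin signalling, *Glul*, *Oat*, *Slc1a2*, *Rhbg*, *Cyp2e1*, *Axin2*, *Rnf43*, *Nkd1*, *Lgr5* and *Tbx3*. They were taken by name from the 16647 genes with deposited counts, and all 10 were among the 13219 genes tested. The question was whether such zonation markers rise in livers in which cytochromes P450 are induced. Liver RNA was sequenced from male humanized PXR-CAR-CYP3A4/3A7 mice, in which human PXR, CAR, CYP3A4 and CYP3A7 stand in for the mouse genes. All mice were 10 to 15 weeks old when HFD (high-fat diet) began, and HFD continued to the end. After 8 weeks on HFD, 5 control mice received vehicle (DMSO, PEG300 and corn oil), and 5 mice (treated livers) received MI-883 at 5 mg/kg by oral gavage, 3 times per week for 4 weeks. MI-883 is described by the study as a combined agonist of CAR and antagonist of PXR. Both groups carried the humanized genes and received HFD, so lean or non-humanized livers were not part of the comparison.

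None of the 10 genes changed at an adjusted P under 0.05 (0 of 10, edgeR quasi-likelihood test, Benjamini-Hochberg adjustment over 13219 genes). Of all tested genes 1.03% did, a share at which few or none of 10 would pass. At an unadjusted P under 0.05, 3 of the 10 were higher (*Glul*, *Rhbg* and *Tbx3*) and 1 was lower (*Nkd1*) in treated livers, against 8.09% higher and 7.49% lower of all tested genes. DESeq2 called 1 of the 10, *Glul*, which was higher, and 3.5% of all tested genes, 2.2% as higher and 1.3% as lower. A fit of edgeR with a surrogate variable called 1 of the 10, *Tbx3*, and 1.75% of all tested genes. In the same livers, 9 of 15 genes of a list of P450 induction rose and 0 fell (edgeR, with 0 also at an unadjusted P under 0.05 and in DESeq2). This list was written with earlier results of these data known, so its share of risen genes is a description and no test. The 95% intervals of the log2 fold changes of the 10 genes lay between -0.72 and 0.76, and 8 of the 9 risen genes of the P450 list had an interval that lay wholly above this range. A change of 2-fold in either direction was thus outside the interval of each of the 10 genes.

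In the liver lobule, hepatocytes around the central vein and hepatocytes around the portal tract carry different enzymes. Endothelial cells of the central vein release Wnt ligands and R-spondin 3, which stabilize β-catenin in the neighbouring hepatocytes, where β-catenin together with TCF factors switches on pericentral genes. Glutamine synthetase (*Glul*), ornithine aminotransferase (*Oat*), the glutamate transporter *Slc1a2* and the ammonium transporter *Rhbg* serve ammonium removal in the innermost cells. *Axin2*, *Rnf43*, *Nkd1* and *Lgr5* are target genes of the pathway that also act within it. Many inducible P450 enzymes are themselves expressed mainly in the pericentral zone.

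The 250 bases before a transcription start of 5 of these genes are shown because they cover ammonium and glutamate genes, the P450 gene and the most widely used target gene of β-catenin signalling, *Axin2*. For *Slc1a2* and *Axin2* the start used lies inside the gene, which begins at 102658239 and 108917828. Their stretches thus do not precede the first start of the gene. The bases come from RefSeq (GRCm38.p6), are written 5′ to 3′ on the strand of the gene, and carry the core of the TCF motif, CTTTGA or its reverse TCAAAG, in capitals. The stretches are chr1:153899679-153899928 (plus strand) for *Glul*, chr7:132576399-132576648 (minus strand) for *Oat*, chr2:102706188-102706437 (plus strand) for *Slc1a2*, chr7:140763569-140763818 (plus strand) for *Cyp2e1* and chr11:108920099-108920348 (plus strand) for *Axin2*.
Glul: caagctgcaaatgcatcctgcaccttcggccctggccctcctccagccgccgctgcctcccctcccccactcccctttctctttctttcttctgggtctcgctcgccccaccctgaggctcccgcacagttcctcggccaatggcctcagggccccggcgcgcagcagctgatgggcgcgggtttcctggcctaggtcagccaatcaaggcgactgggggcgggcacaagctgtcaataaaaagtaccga
Oat: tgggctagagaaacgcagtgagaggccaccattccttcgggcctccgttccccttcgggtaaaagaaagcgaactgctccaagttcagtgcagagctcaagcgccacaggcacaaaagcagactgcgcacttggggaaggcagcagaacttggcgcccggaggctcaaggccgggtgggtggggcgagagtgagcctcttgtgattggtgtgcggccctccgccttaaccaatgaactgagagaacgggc
Slc1a2: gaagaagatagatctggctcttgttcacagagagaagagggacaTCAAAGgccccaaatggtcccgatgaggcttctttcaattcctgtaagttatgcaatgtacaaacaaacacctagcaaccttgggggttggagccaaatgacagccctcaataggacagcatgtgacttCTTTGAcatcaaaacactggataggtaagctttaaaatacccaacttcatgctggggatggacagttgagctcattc
Cyp2e1: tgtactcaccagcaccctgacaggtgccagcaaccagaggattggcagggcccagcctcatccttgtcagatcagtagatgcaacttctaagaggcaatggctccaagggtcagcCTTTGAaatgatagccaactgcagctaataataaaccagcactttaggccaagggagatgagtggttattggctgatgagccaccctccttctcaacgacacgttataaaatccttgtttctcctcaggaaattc
Axin2: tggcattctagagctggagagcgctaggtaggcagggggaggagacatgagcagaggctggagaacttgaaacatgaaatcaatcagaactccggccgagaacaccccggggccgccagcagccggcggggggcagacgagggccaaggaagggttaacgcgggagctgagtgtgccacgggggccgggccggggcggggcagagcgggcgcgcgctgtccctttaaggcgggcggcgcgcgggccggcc

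Of the 10 genes, 7 had at least one such window in the RefSeq table, and *Lgr5*, *Tbx3* and *Rhbg* had no entry. In windows of 300 bases (the 250 bases and the first 50 of the transcript), the TCF core on either strand was found in 2 of 8 windows of these genes, and in 16% of 32851 windows of all genes. *Slc1a2* held it at positions -206 and -77 and *Cyp2e1* at -135, counted from the start used for the window, which for *Slc1a2* lies inside the gene. The 250 bases of *Glul*, *Oat* and *Axin2* had a GC content of 64.8%, 60% and 69.2%, against 44.8% for *Slc1a2* and 48.8% for *Cyp2e1*. The median of all windows was 52.4%. A match of these letters is a description and does not show binding.

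Between 23513665 and 36221514 reads per liver were counted on genes. The median was 31734138 in control livers (24014461 to 36221514) and 24581671 in treated livers (23513665 to 28349963). Levels are in CPM, the counts of a library scaled to a common size by the TMM method, with the S.D. over 5 livers, and a log2 fold change is MI-883 minus control. The median log2 fold change of all tested genes was 0.0045, and 51% of them were positive. As a check of the tissue, hepatocyte markers summed to between 71549 and 82679 CPM in control and between 60222 and 72379 CPM in treated livers, while markers of central vein endothelium summed to 12.8 to 19.1 and 14.6 to 21.1 CPM. None of the markers in these or the lists for bile duct, endothelial, Kupffer, stellate, lymphoid and erythroid cells passed the threshold (0 of 40 genes in edgeR, 9 at an unadjusted P under 0.05, 2 in DESeq2), and no tested marker was at 0 in any liver. Of all tested genes, 15.6% had an unadjusted P under 0.05 and 3.5% were called by DESeq2. Of the 9, *Ttr*, *Apoa1* and *Hba-a2* were lower, and *Sox9*, *Pecam1*, *Cdh5*, *Lyve1*, *Cd68* and *Reln* higher. DESeq2 called *Apoa1* (adjusted P = 0.00066) and *Cdh5* (0.0223). The study also reports lower *Apoa1* after MI-883. In bulk liver RNA, fewer pericentral cells and less RNA per cell cannot be told apart.

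*Glul* (Entrez gene 14645, GRCm38, chromosome 1, 153899929 to 153909723) encodes glutamine synthetase, which joins ammonium to glutamate in the cells next to the central vein. Its CPM was 1163, 1125, 1115, 1021 and 1052 in control livers 1 to 5 and 1219, 1315, 1214, 1506 and 1372 in treated livers 1 to 5. The lowest treated liver was above the highest control liver, and of the 10 genes *Glul* was the only one without overlap between the groups. Groups without overlap were found in 3.98% of all tested genes, upward in 2.05% and downward in 1.93%. The mean was 1095 ± 57.5 CPM in control and 1325 ± 121 CPM in treated livers, a log2 fold change of 0.27 (SE 0.0841, the standard error, 95% interval 0.09 to 0.46). The adjusted P was 0.155 in edgeR and 0.0128 in DESeq2, and P = 0.00794 in a two-sided exact permutation test, the smallest value that 5 livers against 5 allow. Over all other fits the adjusted P of *Glul* lay between 0.0128 and 0.3, with only the DESeq2 value under 0.05.

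*Oat* (Entrez gene 18242, chromosome 7, 132557475 to 132576398) encodes the mitochondrial enzyme that turns ornithine into the precursor of glutamate. Its CPM was 1001, 1375, 1522, 2126 and 1577 in control livers and 1609, 1855, 1533, 2221 and 2521 in treated livers. All 5 treated livers lay above the control median, but control livers 4 and 5 (2126 and 1577 CPM) lay inside the treated range. The log2 fold change was 0.36 (SE 0.187, 95% interval -0.05 to 0.76, adjusted P = 0.375, edgeR), from 1520 ± 406 to 1948 ± 418 CPM. The spread between livers of 1 group was thus about as large as the difference between the group means.

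*Slc1a2* (Entrez gene 20511, chromosome 2, 102658239 to 102790784) encodes the glutamate transporter GLT-1, and was measured at 142, 154, 178, 231 and 212 CPM in control and 142, 172, 149, 188 and 210 CPM in treated livers. The groups covered the same range. Its log2 fold change was -0.092 (SE 0.144, 95% interval -0.40 to 0.22, adjusted P = 0.788, edgeR). The livers high for *Slc1a2* were mostly those high for *Oat*, with control liver 4 the highest control liver for both.

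*Rhbg* (Entrez gene 58176, chromosome 3, 88242874 to 88254739) encodes an ammonium transporter of the Rhesus family. The control livers had 14.4, 15.3, 14.8, 19.6 and 10.7 CPM and the treated livers 19.6, 17.8, 18.1, 23.8 and 23.1 CPM. All 5 treated livers lay above the control median and 2 above the highest control liver. The log2 fold change of 0.45 (SE 0.139, 95% interval 0.15 to 0.75) was the largest of the 10 genes, and its adjusted P was 0.159 in edgeR and 0.0666 in DESeq2. The count of *Rhbg* is uncertain, as 59.4% of its 100-base stretches also occur in *Gm38392*, a gene model on the same strand, and the value depends on how reads shared by both were assigned.

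*Cyp2e1* (Entrez gene 13106, chromosome 7, 140763819 to 140774990) encodes the P450 that oxidizes ethanol and paracetamol, and is among the most abundant pericentral transcripts. Its CPM was 7773, 10042, 9499, 10062 and 12239 in control livers and 8631, 10637, 7348, 11573 and 9056 in treated livers. The lowest value of all 10 livers was that of treated liver 3, the highest that of control liver 5. The mean was 9923 ± 1597 CPM in control and 9449 ± 1670 CPM in treated livers, a log2 fold change of -0.071 (SE 0.147, 95% interval -0.39 to 0.25, adjusted P = 0.847, edgeR). *Cyp1a2* (Entrez gene 13077), a pericentral P450 of the P450 induction list, had 242, 244, 377, 303 and 265 CPM in control livers and 662, 1113, 835, 1121 and 1115 CPM in treated livers. It rose with no overlap between the groups, by a log2 fold change of 1.76 (SE 0.168, 95% interval 1.4 to 2.12, adjusted P = 0.00012, edgeR).

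*Axin2* (Entrez gene 12006, chromosome 11, 108917828 to 108950783) encodes a scaffold of the complex that degrades β-catenin. With 112 to 281 counts per liver, it was measured at 6.42, 5.34, 6.38, 6.2 and 4.91 CPM in control and 6.08, 5.49, 7.29, 7.83 and 9.96 CPM in treated livers. In 3 treated livers the value was above the highest control liver, while the other two lay within the control range. The log2 fold change was 0.32 (SE 0.156, 95% interval -0.01 to 0.66, adjusted P = 0.338, edgeR), and treated liver 5 was the highest.

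*Rnf43* (Entrez gene 207742, chromosome 11, 87663087 to 87735539) encodes a ubiquitin ligase that removes Frizzled receptors from the cell surface. It had 18.7, 14.8, 25.1, 24.8 and 21.8 CPM in control livers and 19.8, 16.7, 23.2, 21.9 and 27.6 CPM in treated livers. The groups overlapped almost fully, and the log2 fold change was 0.056 (SE 0.153, 95% interval -0.27 to 0.39, adjusted P = 0.891, edgeR).

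*Nkd1* (Entrez gene 93960, chromosome 8, 88521342 to 88594887) encodes Naked cuticle 1, a Dishevelled-binding inhibitor of the pathway. Its CPM was 5.95, 3.81, 4.78, 4.11 and 4.39 in control livers and 3.25, 2.7, 4.07, 3.83 and 3.76 in treated livers, from 61 to 213 counts. No treated liver lay above the control median and 3 lay below the lowest control liver. The log2 fold change of -0.39 (SE 0.155, 95% interval -0.72 to -0.05, adjusted P = 0.257, edgeR) was the most negative of the 10 genes. *Axin2* and *Nkd1*, both negative-feedback targets, thus had estimates of opposite sign, and neither passed the threshold.

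*Lgr5* (Entrez gene 14160, chromosome 10, 115450314 to 115587780) encodes a receptor for R-spondins. It was the least abundant of the 10 genes for its length, with 62 to 186 counts per liver. Control livers had 3.27, 2.25, 5.44, 5.39 and 3.99 CPM and treated livers 2.94, 2.74, 4.92, 3.22 and 4.82 CPM. The livers varied more than the groups, and the log2 fold change was -0.12 (SE 0.251, 95% interval -0.66 to 0.43, adjusted P = 0.854, edgeR). Its SE was the largest of the 10 genes, against a median of 0.112 over all tested genes, so that a change of *Lgr5* within this interval was not detectable at this depth and spread.

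*Tbx3* (Entrez gene 21386, chromosome 5, 119670534 to 119684724) encodes a T-box repressor that is expressed in pericentral hepatocytes. Its CPM was 28.6, 30.8, 34.1, 47.5 and 43.3 in control livers and 48.1, 45.4, 41, 52 and 60.8 in treated livers. All 5 treated livers lay above the control median and 3 above the highest control liver, with control livers 4 and 5 inside the MI-883 range. From 36.9 ± 8.18 to 49.5 ± 7.51 CPM, the log2 fold change was 0.43 (SE 0.144, 95% interval 0.11 to 0.74). The adjusted P was 0.183 in edgeR, 0.102 in DESeq2 and 0.0315 in a fit with a surrogate variable, in which the log2 fold change was 0.56.

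**Figure D1:**
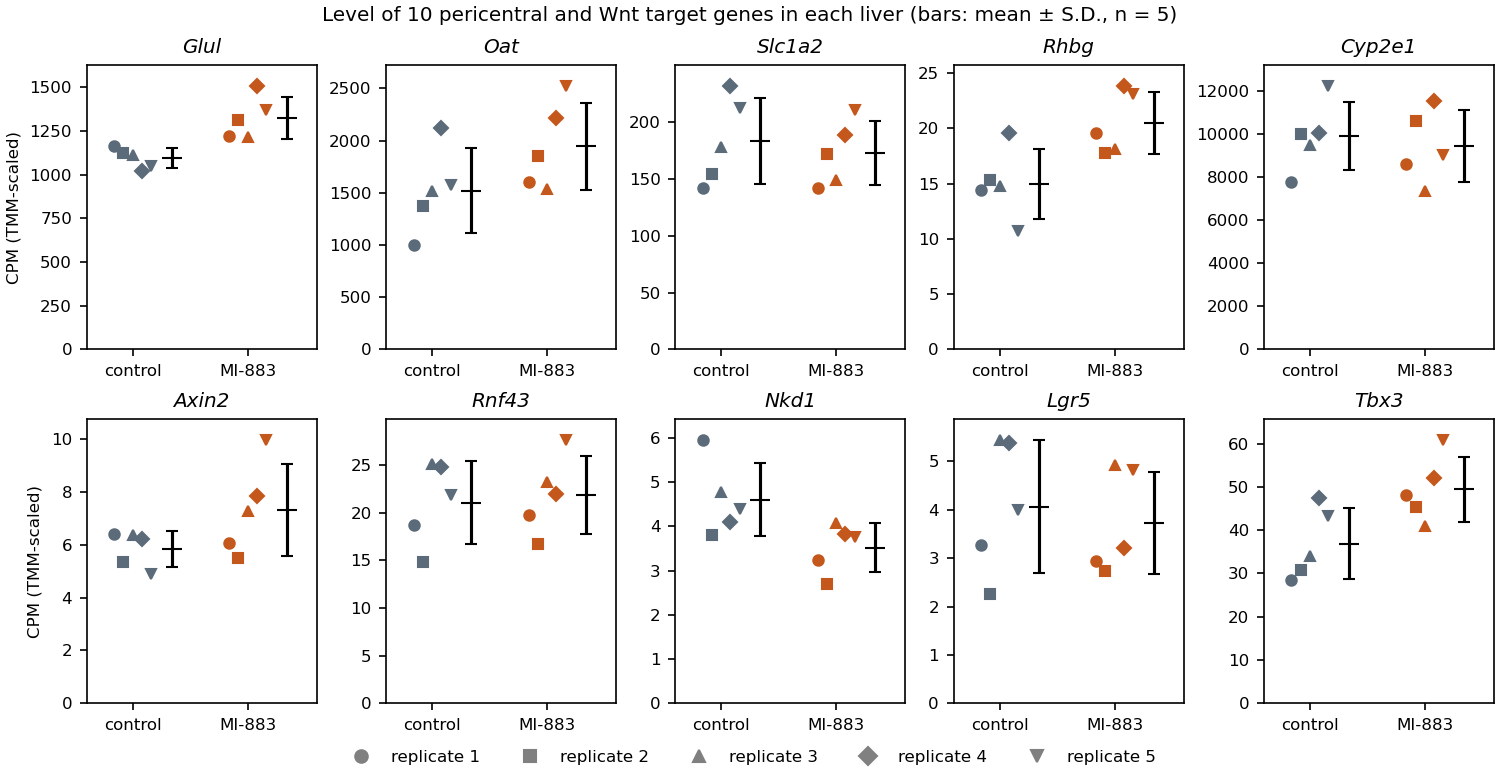
CPM of each of the 10 genes by liver, in 1 panel per gene, with 5 control and 5 treated livers as points and the group mean with S.D. The groups are apart in *Glul* alone, where the lowest treated liver is at 1214 and the highest control liver at 1163 CPM.

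Across the 10 genes, levels spanned a wide range when divided by the merged exon length in kilobases. In control livers this level was 4598 ± 740 CPM per kb for *Cyp2e1*, followed by *Oat* (644 ± 172), *Glul* (330 ± 17.3), *Slc1a2* (14 ± 2.88), *Rhbg* (7.72 ± 1.65), *Tbx3* (5.56 ± 1.23), *Rnf43* (3.21 ± 0.664), *Axin2* (1.06 ± 0.124), *Nkd1* (1.01 ± 0.182) and *Lgr5* (0.396 ± 0.134). The enzymes stood far above the transporters, and the Wnt feedback genes stood lowest. The neighbours *Rhbg* and *Tbx3*, and the neighbours *Axin2* and *Nkd1*, overlapped between control livers, while the other neighbours in this order did not. The order of the group means was the same in treated livers, where only *Slc1a2* (13.1 CPM per kb) and *Rhbg* (10.6 CPM per kb) overlapped as neighbours.

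Against these 10 genes, the list of P450 induction held 15 genes, of which 9 rose, 0 fell and 6 did not pass (edgeR), with a median log2 fold change of 1.02. As the list was chosen with earlier results known, these values describe the listed genes and not P450 genes at large. The same median was 0.17 over the 10 pericentral and β-catenin genes, 6 of which had a positive and 4 a negative value. *Cyp2b10* (Entrez gene 13088), the mouse gene most used as a readout of CAR, had 29.2, 44.3, 24.4, 43.8 and 40.8 CPM in control livers and 851, 1375, 634, 1249 and 989 CPM in treated livers. The risen genes of lowest and highest change were *Cyp2a5* (log2 fold change 0.77) and *Cyp2b10* (4.80). Between them, besides *Cyp1a2*, lay *Cyp2c29* (1.02), *Cyp2c37* (1.66), *Cyp2c50* (1.91), *Cyp2c54* (2.26), *Cyp2c55* (3.20) and *Cyp2c65* (3.59). *Cyp2c65* was scarce, with a mean of 0.126 CPM in control and 1.57 CPM in treated livers. The P450 electron donor *Por* (log2 fold change 0.43, adjusted P = 0.365, edgeR) and *Alas1* (0.055, adjusted P = 0.899, edgeR), the first enzyme of heme synthesis, did not pass. Nor did *Cyp2a4* (0.13, adjusted P = 0.847, edgeR) and *Cyp2b9* (-1.18, adjusted P = 0.327, edgeR). The mean of *Cyp2b9* was 17.6 ± 10.8 CPM in control and 7.8 ± 5.51 CPM in treated livers. Of the 15 values of the list, 13 were positive and 2 negative. The call of *Cyp2a5* was lost in 6 of 10 fits that each left out 1 liver (control livers 2, 3 and 5 and treated livers 2, 4 and 5), with adjusted P up to 0.0853 (edgeR), and the other 8 calls were kept in all 10.

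**Figure D2:**
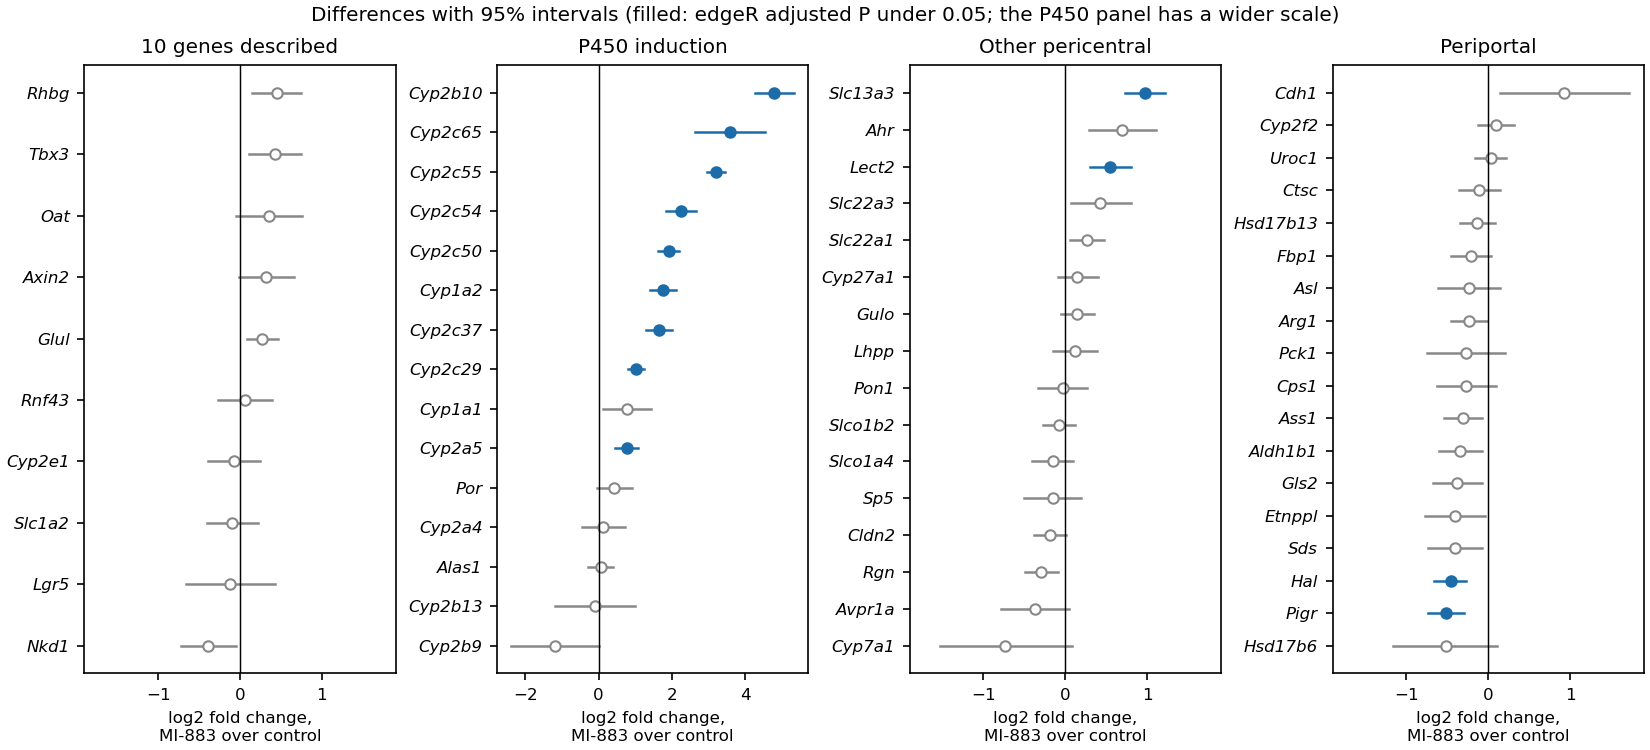
Log2 fold change (MI-883 minus control) with its 95% interval for the 10 genes and for the genes of the P450 induction, other pericentral and periportal lists, with filled points for an adjusted P under 0.05 (edgeR) and a wider scale for P450 induction. The 10 genes lie between -0.39 and 0.45, while *Cyp2b10* lies at 4.80.

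A further list held 16 pericentral genes outside the 10 and outside the P450 induction list. P450 and glutathione transferase genes that CAR also raises were left out of it by choice. Its values thus describe the listed genes and not pericentral genes at large. Of these, 2 rose, 0 fell and 14 did not pass in edgeR (1 was lower at an unadjusted P under 0.05 and 1 in DESeq2), with a median log2 fold change of 0.044 and 8 values on each side of 0. *Slc13a3*, which encodes a sodium-coupled dicarboxylate transporter, had 21, 21.2, 22.8, 21 and 16.2 CPM in control and 33, 37.7, 39.2, 41.2 and 50.1 CPM in treated livers. It rose without overlap, by a log2 fold change of 0.98 (SE 0.113, adjusted P = 0.00083, edgeR), and its call was kept with each liver left out. *Lect2*, which encodes a secreted liver protein and is a known target of β-catenin, had 155, 142, 188, 202 and 153 CPM in control and 234, 264, 205, 293 and 235 CPM in treated livers. It rose by a log2 fold change of 0.55 (SE 0.116, adjusted P = 0.0424, edgeR), a call that was kept in the 2 fits without control liver 4 or treated liver 3 and lost in the 8 fits without any one of the others, with adjusted P up to 0.117 (edgeR). With the replicate number as a block the adjusted P of *Lect2* was 0.053 (edgeR).

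*Rgn*, which encodes regucalcin, the most abundant of those that did not pass in edgeR, had a log2 fold change of -0.29 (adjusted P = 0.167 in edgeR and 0.0346 in DESeq2). *Ahr*, the receptor for dioxin, had 23.5, 37.5, 37.8, 50.8 and 47.5 CPM in control and 54.1, 84.8, 72.9, 55.6 and 53 CPM in treated livers, without overlap. Its log2 fold change was 0.70 (SE 0.191), and the adjusted P was 0.109 in edgeR, 0.0145 in DESeq2 and 0.0413 with a surrogate variable. *Cyp7a1*, the rate-limiting enzyme of bile acid synthesis, had a log2 fold change of -0.73 and did not pass (adjusted P = 0.367, edgeR). Its CPM was 15.7, 69.7, 54.7, 120 and 99.7 in control and 39.6, 50.9, 32.4, 49.6 and 44.9 in treated livers. Control liver 1 was thus the lowest of all 10 livers. In the fit without control liver 1, *Cyp7a1* was called lower (edgeR). The study reports lower *Cyp7a1* mRNA after MI-883 by RT-qPCR. Log2 fold changes of *Slco1b2*, *Pon1* and *Cyp27a1* were -0.075, -0.032 and 0.15.

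Of 18 periportal genes, 0 rose, 2 fell and 16 did not pass in edgeR (1 was higher at an unadjusted P under 0.05 and 0 in DESeq2), with a median log2 fold change of -0.27. Values were negative in 15 of 18, and 8 had an unadjusted P under 0.05 in that direction, against 7.49% of all tested genes. Called lower were 0.265% of all tested genes (edgeR). The periportal list was also written with earlier results of these data known, so its shares are a description and no test. *Hal*, the first enzyme of histidine breakdown, had 168, 192, 223, 206 and 217 CPM in control and 150, 136, 131, 163 and 149 CPM in treated livers. It fell with no overlap, by a log2 fold change of -0.46 (SE 0.0894, adjusted P = 0.0264, edgeR). *Pigr*, the receptor that carries polymeric immunoglobulins across epithelia, had 1195, 1311, 1430, 1182 and 1402 CPM in control and 898, 925, 834, 1097 and 795 CPM in treated livers. It fell by a log2 fold change of -0.52 (SE 0.101, adjusted P = 0.0268, edgeR), also with no overlap.

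Both periportal calls were lost with the replicate number as a block (adjusted P = 0.063 for *Hal* and 0.085 for *Pigr*, edgeR) and in 7 of 10 fits that left out 1 liver. These fits lacked control liver 2, 3 or 5 or treated liver 2, 3 or 5 for both genes, control liver 4 for *Hal* and treated liver 1 for *Pigr*, with adjusted P up to 0.0796 and 0.0874 (edgeR). The urea cycle genes *Cps1*, *Ass1* and *Arg1* (log2 fold changes of -0.27, -0.31 and -0.24) and the gluconeogenic gene *Pck1* (-0.27) did not pass. The summed hepatocyte markers given above moved in the same direction as the periportal genes (median log2 fold change of the 5 markers -0.25, P = 0.0159 for their sum in a two-sided exact permutation test, with overlap between the groups), and their part in the periportal values was not tested.

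Genes of the Wnt pathway itself were taken as a list of 82, of which 49 were abundant enough to be tested. None of these passed the threshold (0 of 49, edgeR), against 1.03% of all tested genes, a share at which few or none of 49 would pass. Their median log2 fold change was 0.014. At an unadjusted P under 0.05, 3 were higher and 0 lower, against 8.09% and 7.49% of all tested genes. DESeq2 called 1, against 3.5% of all tested genes. Among 23 ligands and R-spondins 9 were tested. *Rspo3*, the R-spondin of the central vein, had a mean of 5.98 CPM in both groups (log2 fold change -0.0047, SE 0.164, adjusted P = 0.993, edgeR). *Wnt2* and *Wnt9b*, ligands of the central vein endothelium, had log2 fold changes of -0.067 and 0.26. *Wnt5a*, a ligand that mostly acts without β-catenin, had a mean of 0.876 ± 0.128 CPM in control and 1.92 ± 0.722 CPM in treated livers, with a log2 fold change of 1.12 (SE 0.255) and an adjusted P of 0.0581 in edgeR and 0.00481 in DESeq2.

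Among 17 receptors 11 were tested, with a median log2 fold change of 0.046, and the co-receptor *Lrp6* and the R-spondin receptor *Lgr4* both had a value of -0.13. Secreted and membrane inhibitors (7 tested of 18) had a median of 0.037, and *Notum* and *Znrf3*, which are also β-catenin targets, had -0.15 and -0.22. Intracellular components (22 tested of 24) had a median of -0.026. *Ctnnb1*, which encodes β-catenin, had a mean of 220 ± 3.92 CPM in control and 223 ± 11.8 CPM in treated livers, and its log2 fold change was 0.019 (SE 0.0611, adjusted P = 0.908, edgeR).

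Of 19 other target genes of β-catenin, 14 were tested, with a median log2 fold change of -0.068, and 1 rose (edgeR). DESeq2 called 2 as higher, and 3 were higher and 0 lower at an unadjusted P under 0.05. *Tnfrsf19*, a receptor of the TNF family, had 22.5, 18, 14.6, 16.4 and 17.8 CPM in control and 25.5, 23.2, 25.5, 24.9 and 25.9 CPM in treated livers, so the groups did not overlap. Its log2 fold change was 0.48 (SE 0.0994, adjusted P = 0.0354, edgeR). The call was lost with scaling by total counts (adjusted P = 0.0683), with the replicate number as a block (0.0545) and in 9 of 10 fits that left out 1 liver (up to 0.102, all edgeR), with control liver 1 as the exception. *Birc5*, which encodes survivin, had 1.7, 1.19, 1.68, 2.11 and 1.14 CPM in control and 2.94, 2.61, 2.81, 3 and 2.48 CPM in treated livers, also without overlap. Its log2 fold change of 0.81 (SE 0.184) was the largest of the list, with an adjusted P of 0.0581 in edgeR, 0.00448 in DESeq2 and 0.0546 with a surrogate variable. *Vegfa* (log2 fold change -0.13), *Jun* (-0.29) and *Ccnd1* (0.23), which encode a vessel growth factor, a transcription factor and cyclin D1, did not pass.

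Of 20 further genes of glutamate, glutamine and ammonium handling, 15 were tested, 2 rose and 0 fell in edgeR (4 were lower at an unadjusted P under 0.05 and 0 in DESeq2), with a median log2 fold change of -0.11. *Slc1a4*, a transporter of alanine, serine and cysteine from the family of *Slc1a2*, had 5.31, 4.84, 4.86, 6.52 and 5.7 CPM in control and 12.2, 13.2, 11.8, 12.6 and 12.6 CPM in treated livers. It rose by a log2 fold change of 1.19 (SE 0.099, adjusted P = 5.2e-05, edgeR), with the lowest treated liver far above the highest control liver. *Asns*, asparagine synthetase, had 0.754, 0.625, 1.23, 0.695 and 1.23 CPM in control and 1.09, 5.8, 2.37, 2.83 and 6.38 CPM in treated livers, a log2 fold change of 2.05 (SE 0.427, adjusted P = 0.0396, edgeR). treated liver 1 lay within the control range for *Asns*. That call was lost with the replicate block (adjusted P = 0.0545) and in 8 of 10 fits that left out 1 liver (up to 0.115, edgeR), and kept without treated liver 1 or 3. Glutamate dehydrogenase (*Glud1*, log2 fold change -0.17) and the amino acid transporters *Slc38a3* (-0.27) and *Slc38a4* (-0.26) did not pass.

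For each liver, the genes of a list were also summarized as the mean difference of their log2 CPM from the control mean. For P450 induction this value was -0.13, 0.1, -0.37, 0.29 and 0.12 in control livers and 1.36, 1.67, 1.31, 1.32 and 1.31 in treated livers, which formed separate clusters. For the 10 genes it was -0.14, -0.2, 0.09, 0.23 and 0.02 in control livers and -0.03, -0.04, 0.07, 0.26 and 0.38 in treated livers, with overlap. treated liver 2 had the highest value for P450 induction and the lowest of its group for the 10 genes. Livers 4 and 5 of that group, with the highest values for the 10 genes, had P450 values of 1.32 and 1.31. A relation between both values across livers was not tested, and with the livers in separate clusters by P450 value, 5 in each, no pooled r is given.

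The periportal value was -0.2, -0.01, 0.14, 0.05 and 0.03 in control livers and -0.14, -0.25, -0.2, -0.16 and -0.26 in treated livers, so that control liver 1 lay inside the treated range. The 10 genes minus the periportal genes gave 0.06, -0.19, -0.05, 0.18 and -0.01 in control livers and 0.11, 0.21, 0.27, 0.42 and 0.64 in treated livers. In this difference 4 treated livers lay above all control livers, and treated liver 1 did not.

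**Figure D3:**
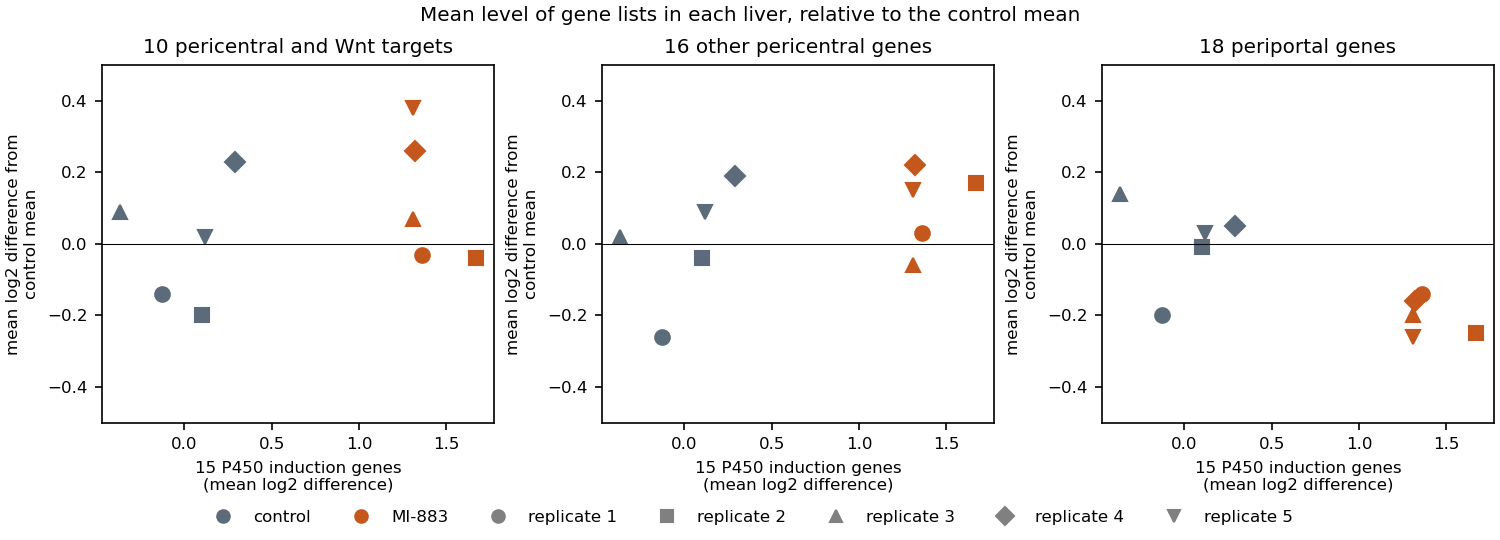
Mean log2 CPM difference from the control mean of the 10 genes, 16 other pericentral genes and 18 periportal genes (vertical axes, 1 panel each) against that of 15 P450 induction genes (horizontal axes), with 5 control and 5 treated livers as points. The P450 induction values of treated livers lie between 1.31 and 1.67, apart from the controls, while the values of the 10 genes overlap between the groups (-0.2 to 0.23 and -0.04 to 0.38).

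To describe how the genes varied from liver to liver, Pearson's r was taken between deviations of log2 CPM from the group mean over the 10 livers. Genes measured in the same liver share its library and depth, r rests on only 10 points, and no test was made. Of the 45 pairs of the 10 genes, 4 had r of at least 0.9, *Rnf43* with *Lgr5* (0.94), *Oat* with *Slc1a2* (0.94), *Slc1a2* with *Tbx3* (0.93) and *Oat* with *Tbx3* (0.90). Without the 2 livers farthest from the median for the first gene named in each pair, these were 0.90, 0.90, 0.87 and 0.80. Livers extreme only for the second gene were kept. The median of the 45 pairs was 0.32, against 0.01 for pairs of these genes with any of 11613 genes of at least 1 CPM, of which 0.163% reached 0.9. In 11 pairs r was negative, the lowest being -0.55 for *Cyp2e1* with *Nkd1*.

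The 10 genes did not all vary together. The nearest gene to *Lgr5* among all genes compared was *Rnf43*, and *Lgr5* was second for *Rnf43*. The highest r of *Glul* with another of the 10 over all livers was 0.41, with *Axin2*, which ranked 2005 among its neighbours. This r combines unlike patterns within the groups. In control livers the order of *Glul* was the exact reverse of that of *Oat*, *Slc1a2* and *Tbx3*, with control liver 1 highest for *Glul* and lowest for the others, whereas treated livers 4 and 5 were the 2 highest for all of these genes. The r of *Glul* with *Oat*, *Slc1a2*, *Tbx3* and *Cyp2e1* was negative within the 5 control livers and positive within the 5 treated livers, and a difference between the groups in this respect was not tested. Nearest to *Glul* were *Tnk2* (0.98), *Pex5* (0.96), *Abcc3* (0.95), *Mxd4* (0.94) and *Skiv2l* (0.93). *Cyp2e1* was nearest to *Por* (0.97), and 95 genes had r of at least 0.9 with it.

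**Figure D4:**
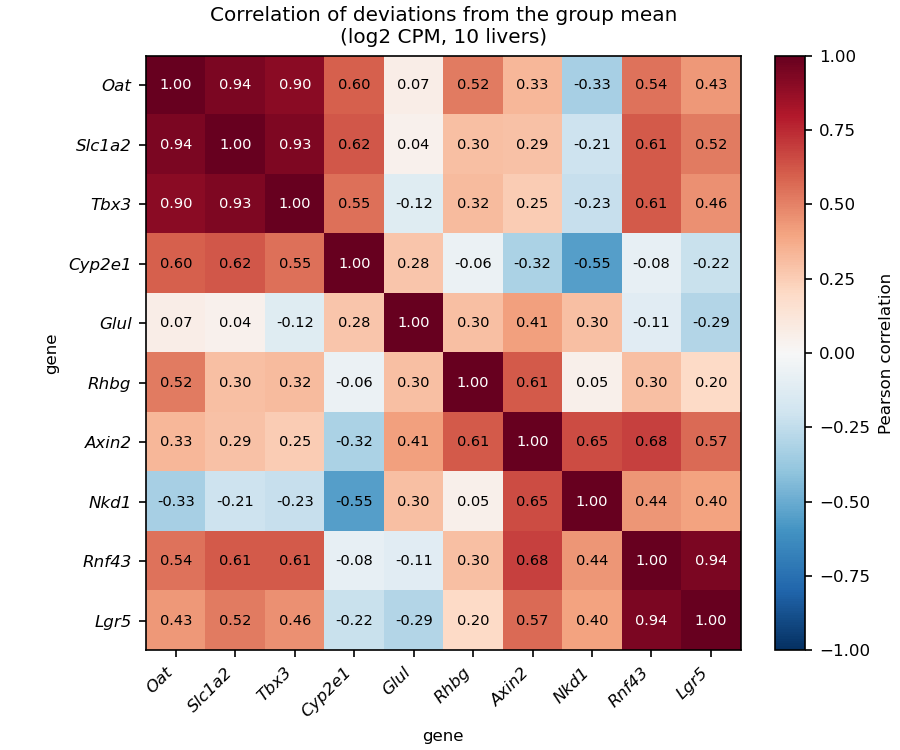
Pearson's r of log2 CPM deviations from the group mean over 10 livers for each pair of the 10 genes, as a colour scale from -1 to 1. *Oat*, *Slc1a2* and *Tbx3* form a block with r from 0.90 to 0.94 and *Rnf43* and *Lgr5* a pair at 0.94, while *Glul* has no r above 0.41 over both groups, its r with *Oat*, *Slc1a2*, *Tbx3* and *Cyp2e1* being negative within control livers and positive within treated livers.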

How the data were processed

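Liver RNA of 5 control and 5 MI-883-treated mice, each library from another animal, was sequenced with paired-end reads of 150 bases from a directional library. The authors trimmed reads (fastp 0.23.0 in the submitters' processing notes), aligned them to mm10 with STAR, counted them on genes with featureCounts, and deposited raw counts by Entrez gene number, without normalization. Versions of STAR and featureCounts, the annotation and the strand setting are not given in the sources used here. Reads from genes that overlap on opposite strands, such as *Glul* and *Teddm2* (3.49% of exon bases), may therefore not have been told apart.

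Of the 16647 genes, 16644 were matched to RefSeq symbols of GRCm38. The 13219 genes whose counts over the livers summed to 60 or more were tested, and 3428 fell below, with edgeR 4.0.16 in R 4.3.3 (TMM, quasi-likelihood test, group as the only term, Benjamini-Hochberg adjustment over all tested genes, threshold 0.05). The standard error is the size of the log2 fold change divided by the square root of F. The exact permutation test had 252 splits. On simulated data with 200 changed genes of 13047, edgeR called 81% at a log2 fold change of 1 and 94% at 2, with 4.37% false calls, and DESeq2 called 84% and 95%, with 11.4% false calls.

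The 10 genes and the gene lists were chosen with earlier results of these data known. By the rule for naming, all 10 genes were reported, together with the 5 genes most like *Glul*, and from each list the genes past the threshold and up to 4 of highest mean CPM among the others. *Ahr*, *Cyp7a1*, *Birc5*, *Wnt5a*, *Wnt9b* and the nearest genes of *Lgr5*, *Rnf43* and *Cyp2e1* were added after their values were seen. Shared 100-base stretches and exon lengths were taken from GENCODE M21. Alternatives were DESeq2 1.42.0, its size factors, total counts, other count filters, a surrogate variable (sva 3.50.0), a replicate block and leaving out each liver. Of pairs of livers with the same replicate number, the correlations of deviations lay between -0.121 and 0.36. The labels do not say whether livers of the same number were handled together, and a shared batch was not tested.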

Additional observations from a re-analysis of the deposited data

Results flagged for a closer look

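Within each group of 5 livers, the lowest and the highest value were compared with the rest by Dixon's criterion. It was exceeded in 2 of 60 groups examined, where 3 are expected by chance. *Slc13a3* was at 16.2 CPM in control liver 5, with the nearest control liver at 21. The P450 induction value of MI-883-treated liver 2 was 1.67, with the nearest treated liver at 1.36.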

How the results depend on the processing

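No gene of the 10 was called lower under any of 8 alternatives or 10 fits without 1 liver, and the calls upward were *Glul* with DESeq2 (1 gene) and *Tbx3* with a surrogate variable (1 gene). The signs of *Glul*, *Oat*, *Rhbg*, *Axin2*, *Nkd1* and *Tbx3* held in every fit. With a surrogate variable the sign reversed for *Slc1a2* (0.058) and *Cyp2e1* (0.056). Leaving out 1 liver gave log2 fold changes of -0.17 to 0.0051 for *Slc1a2*, -0.15 to 0.016 for *Cyp2e1*, -0.042 to 0.14 for *Rnf43* and -0.26 to 0.012 for *Lgr5*, with reversals at the end nearer to or past 0. For the others the range was 0.22 to 0.31 (*Glul*), 0.24 to 0.51 (*Oat*), 0.35 to 0.57 (*Rhbg*), 0.19 to 0.41 (*Axin2*), -0.44 to -0.27 (*Nkd1*) and 0.34 to 0.54 (*Tbx3*). The 136 genes called over all tested genes became 463 with DESeq2, 89 with the replicate block, 231 with a surrogate variable and 62 to 208 with 1 liver left out. Other pericentral genes called were 2, and 4 with DESeq2, 1 with the block, 4 with a surrogate variable and 1 to 2 without 1 liver. The 2 called without control liver 1 were *Slc13a3* as higher and *Cyp7a1* as lower. Periportal calls were 2, and 0 with the block and 0 to 3 without 1 liver. Wnt pathway calls were 0, and 1 with DESeq2 and 0 to 1 without 1 liver. Other β-catenin target calls were 1, and 0 with total counts, 2 with DESeq2, 0 with the block, 2 with a surrogate variable and 0 to 1 without 1 liver. Glutamate and ammonium calls were 2, and 1 with 60 counts in every liver, 1 with the block and 1 to 2 without 1 liver. P450 induction calls lay between 8 and 9. The cause of these shifts was not tested. What the replicate numbers stand for is not given in the labels, and the block changed no call of the 10 genes. Counts were lowest for *Lgr5* and *Nkd1*, with 62 and 61 in their lowest livers, and the part of depth in their spread was not tested.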
